A study of Homo sapiens with 36 samples.

Results

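Interferon-stimulated genes are genes whose transcription rises when a cell senses interferon, and a list of 38 well-known ones was followed across every gapmer treatment of the series. A member was taken as the array unit whose single gene symbol in the array's unit-to-gene table is that of the member, and the brightest unit by its mean over 36 arrays was used where a member had several. A unit was found for 37 members, among 33616 genes that have such a unit. STAT2 was not analysed here.

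Type I interferons bind a receptor on the cell surface, and the kinases JAK1 and TYK2 then activate the transcription factor ISGF3, of which IRF9 is a part. ISGF3 binds a DNA element called the interferon-stimulated response element (ISRE) in front of its target genes, and a cell with low interferon input still transcribes many of them at a low tonic level. Their products bind foreign RNA, degrade RNA, block translation or modify other proteins.

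The cells were MEC-1, an established B-cell line from a patient with chronic lymphocytic leukaemia, so all arrays come from 1 line. They took up LNA gapmers, antisense oligonucleotides that recruit RNase H to a target RNA, at 1 µM of each gapmer for 4 days. In the CYTOR experiment (CYTOR is also called LINC00152) the groups were gapmer 1, gapmer 2, gapmer 1+2 and scrambled gapmer, and the LINC00158 and RP11-161H23.5 experiments had the same 4 groups against their own long non-coding RNA. Each of the 12 groups had 3 arrays, called replicates in the labels with no word on separate cultures, so p-values measure the spread between arrays only, and gapmer 1+2 may hold more oligonucleotide in all than a single gapmer.

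Values are deposited log2 signals, and a change is the mean of a gapmer group minus the mean of the scrambled group of the same experiment. Each experiment was fitted across all array units with limma, and calls are two-sided, with p adjusted by Benjamini-Hochberg over all units kept and a threshold of 0.05. Each array measures a pool of cells, so fewer cells expressing a gene and less RNA per cell cannot be told apart. All 37 members passed the filter that kept units at or above the median signal. The unit of CYTOR, the targeted RNA, was higher in the arrays labelled CYTOR gapmers, at 6.93 ± 0.47, 6.56 ± 0.25 and 6.27 ± 0.21 in that order of gapmer 1, gapmer 2 and gapmer 1+2, against 5.34 ± 0.14 in the CYTOR scrambled arrays (SD, n = 3 each, called higher in all 3). This goes against those labels, and every direction given for that experiment rests on them. The unit of LINC00158 was lower in its own experiment, at 5.57 ± 0.31, 6.01 ± 0.41 and 5.32 ± 0.52 with the gapmers, against 7.94 ± 0.75 with scrambled gapmer, and it was called lower with the RP11-161H23.5 gapmers too, by 1.15 to 1.44 on the log2 scale. The RP11-161H23.5 RNA was not analysed here. The arrays fell into 4 sets of 9 that shared identical values, with at least 3.98% of 3718 bright units identical within a set and at most 0.941% between sets. One set held all scrambled arrays and each other set the gapmer arrays of 1 experiment, so gapmer treatment and array set cannot be told apart. Comparisons between gapmers of 1 experiment, or between scrambled groups, lie within a set.

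B-cell markers were present, with mean log2 signals between 9.16 and 12.09 for the 5 measured (CD79A brightest), against 3.94 for the median unit. Myeloid markers lay between 3.39 and 4.67, erythroid and platelet markers between 3.38 and 4.55, T-cell and NK-cell markers between 3.30 and 6.75, stromal and epithelial markers between 3.39 and 8.19 (COL1A1 brightest), and plasmacytoid dendritic cell markers between 3.58 and 12.36 (TCF4 brightest, which B cells also express). CD79A, CD79B, BLK and PAX5 were themselves called lower with LINC00158 gapmer 2 and gapmer 1+2, with changes from -1.89 to -1.42 on the log2 scale, and BLK, PAX5 and CD79B with RP11-161H23.5 gapmer 1+2, by 0.85 to 1.32. Their part in the changes of the members was not tested.

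The promoters of the members were searched for the ISRE. The members were chosen as interferon-stimulated genes, so a high share with this element goes with that choice and is not separate support. RefSeq promoter windows (GRCh38.p14, 250 bases before to 50 after a gene's start) were matched by symbol for 31 members. The ISRE core, searched on both strands as GAAA, any 2 bases and GAAA again, occurred in the windows of 21 of these 31 members (67.7%), against 1174 of 27274 other genes (4.3%) and 3.57% of all 35116 windows. A letter match is a description and not a binding site. The following stretches lie before the start of 8 members picked among those with a match there, with the matches in capitals. Each is read on the strand of its gene. The windows of SAMD9L, OAS1 and SP110, which were also called lower, held no match. The first match starts 113 bases before the start of ISG15, 196 before that of MX1, 69 before that of ISG20, 145 before that of RSAD2, 29 before that of PARP14, 41 before that of PARP9, 116 before that of IFIT1 and 45 before that of IFIT5.

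ISG15, chr1:1013359-1013418, plus strand: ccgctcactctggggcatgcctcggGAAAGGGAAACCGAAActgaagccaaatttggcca
MX1, chr21:41431829-41431888, plus strand: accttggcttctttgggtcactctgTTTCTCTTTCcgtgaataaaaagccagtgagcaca
ISG20, chr15:88638922-88638981, plus strand: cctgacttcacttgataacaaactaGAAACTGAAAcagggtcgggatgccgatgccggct
RSAD2, chr2:6877607-6877666, plus strand: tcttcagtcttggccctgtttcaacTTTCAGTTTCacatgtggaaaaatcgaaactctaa
PARP14, chr3:122680785-122680838, plus strand: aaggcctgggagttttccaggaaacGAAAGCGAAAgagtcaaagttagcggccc
PARP9, chr3:122564307-122564366, minus strand: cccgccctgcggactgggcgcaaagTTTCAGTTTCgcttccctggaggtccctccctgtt
IFIT1, chr10:89392482-89392541, plus strand: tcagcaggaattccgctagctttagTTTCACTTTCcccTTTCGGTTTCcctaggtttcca
IFIT5, chr10:89414498-89414557, plus strand: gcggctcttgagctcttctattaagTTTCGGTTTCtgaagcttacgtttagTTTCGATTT

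These 8 members share the core because they were picked for it, and the experiments that called them were not the same. ISG15, MX1, ISG20 and PARP14 were called lower in the LINC00158 and RP11-161H23.5 experiments and not in the CYTOR experiment. RSAD2 and IFIT1 were called lower in the CYTOR experiment alone, and IFIT5 in the RP11-161H23.5 experiment alone. The calls of PARP9 lay in the CYTOR and RP11-161H23.5 experiments. A call in one experiment and none in another is not a tested difference. When tested, no difference between experiments was called for RSAD2, IFIT5 or PARP9. Between the RP11-161H23.5 and CYTOR experiments none was called for MX1, ISG20 or PARP14 either. The 21 members with the core had lower medians than the 9 measured members whose windows lacked it in the 6 LINC00158 and RP11-161H23.5 treatments and higher ones in the 3 CYTOR treatments. The widest gap was with RP11-161H23.5 gapmer 2, at -0.657 with the core, against -0.243 without it. With LINC00158 gapmer 2 the medians were -1.06, against -0.867, and with CYTOR gapmer 2 they were -0.537, against -0.603. Of the 21 members with the core 6, 9 and 7 were called lower with the LINC00158 gapmers, against 0, 3 and 3 of the 9 without it. With the RP11-161H23.5 gapmers these counts were 5, 5 and 11, against 0, 0 and 4. With the CYTOR gapmers the counts were 1, 5 and 3 with the core, against 1, 4 and 2 without it. The groups differ in size, so these counts are not shares. With LINC00158 gapmer 1+2, 7 of 21 and 3 of 9 are the same share, and with each CYTOR gapmer the share was larger without the core. Of all units tested, 6.28% to 12.4% were called lower per treatment. These gaps were not tested.

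The list moved downward in most treatments, and most in the LINC00158 experiment and with RP11-161H23.5 gapmer 1+2. With LINC00158 gapmer 1, gapmer 2 and gapmer 1+2, 8, 15 and 11 of the 37 members were called lower (21.6%, 40.5% and 29.7%), where 6.28%, 10.5% and 8.82% of all units tested were called lower. No member was called higher there, where 4.54%, 6.89% and 6.19% of units were. Among named genes 8.74%, 17.4% and 13.3% were called lower. The median member changed by -0.82, -1.06 and -0.87, against -0.19, -0.21 and -0.21 for the median named gene. Without LINC00158 gapmer 1 replicate 1 the count with gapmer 1 was 25, and with only the gapmer 1 and scrambled arrays in the fit it was 0. After quantile normalization the counts were 4, 9 and 8.

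With RP11-161H23.5 gapmer 1, gapmer 2 and gapmer 1+2, 5, 7 and 18 members were called lower (13.5%, 18.9% and 48.6%), where 7.1%, 7.03% and 9.3% of units were. None was called higher, where 6.19%, 5.2% and 6.98% of units were. The median member changed by -0.38, -0.64 and -0.96, against -0.04, -0.02 and -0.07 for the median named gene. After quantile normalization the counts were 4, 6 and 14, and with only the contrast's groups in the fit they were 3, 4 and 11.

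With arrays labelled CYTOR gapmer 1, gapmer 2 and gapmer 1+2, 3, 11 and 7 members were called lower (8.11%, 29.7% and 18.9%), where 11.4%, 12.4% and 8.93% of units were. The share with CYTOR gapmer 1 was thus below that of all units. ISG15 and LY6E were called higher with CYTOR gapmer 1, where 1.77% of units were, and no member was with gapmer 2 or gapmer 1+2, where 1.84% and 1.54% of units were. The median member changed by -0.02, -0.54 and -0.43, against -0.11, -0.16 and -0.12 for the median named gene. The median tested unit itself lay at -0.23, -0.26 and -0.20 in this experiment, and after quantile normalization 1, 3 and 3 members were called lower. Over the 9 treatments there were 87 called changes, of which 52 were called after quantile normalization, 36 were kept with each array left out in turn and 12 were lost whichever 1 array was left out.

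**Figure D1:**
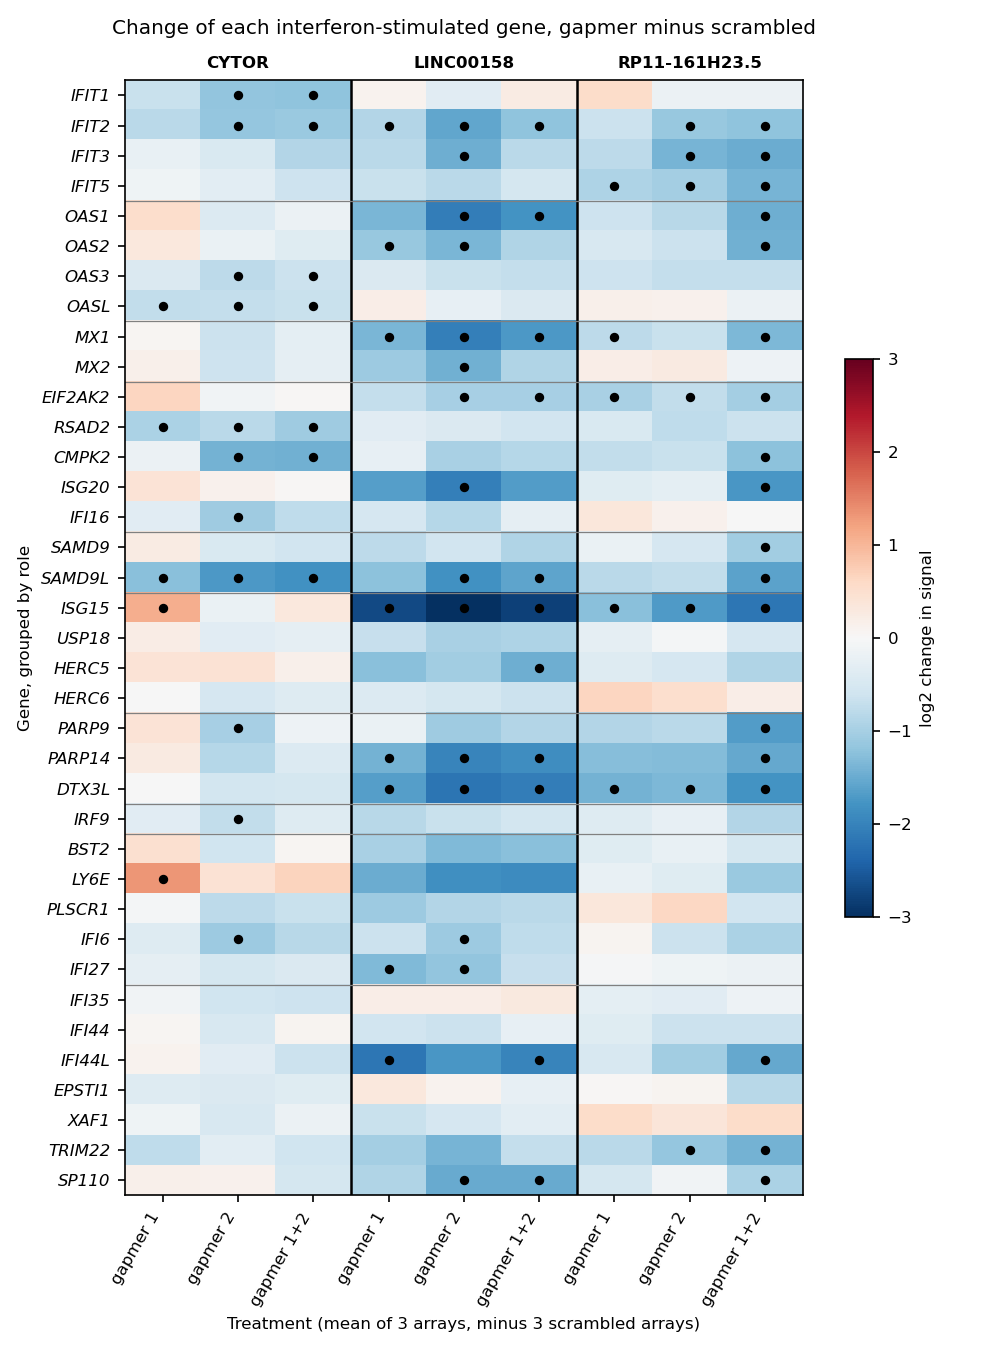
Log2 change of the 37 measured members (rows, by role) in the 9 gapmer treatments (columns), each as mean of 3 gapmer arrays minus mean of 3 scrambled arrays of the same experiment, with dots for changes called at an adjusted p under 0.05. The LINC00158 columns and RP11-161H23.5 gapmer 1+2 are mostly below 0, and ISG15 and LY6E are above 0 with CYTOR gapmer 1.

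The ubiquitin-like protein ISG15, which is attached to other proteins and also secreted, carried the strongest contrast between experiments. In the LINC00158 experiment its log2 signal was 12, 10.27 and 10.63 with gapmer 1, 11.27, 10.31 and 10.48 with gapmer 2, and 11, 10.30 and 11.37 with gapmer 1+2, against 14.17, 13.48 and 13.39 with scrambled gapmer. Every gapmer array lay below every scrambled array. With these gapmers 16.6%, 25.4% and 25.1% of all units tested did so too. The share was 24.5% to 26.2% with the CYTOR gapmers and 18.3% to 18.9% with the RP11-161H23.5 gapmers. A lack of overlap with scrambled arrays is thus common, and these shares stand beside each one given below. The ISG15 changes were -2.71, -2.99 and -2.79 (SE 0.45, limma adjusted p = 0.0077, 0.0041 and 0.0056).

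In the RP11-161H23.5 experiment ISG15 was at 11.22, 11.24 and 11.15 with gapmer 1, 11.05, 10.59 and 10.66 with gapmer 2, and 10.54, 9.67 and 10.67 with gapmer 1+2, against 12.86, 12.38 and 12.13 with scrambled gapmer. Here too the groups did not overlap. The changes were -1.25, -1.69 and -2.16 (SE 0.27, limma adjusted p = 0.0141, 0.0038 and 0.000919).

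In the CYTOR experiment ISG15 was at 14.67, 14.00 and 14.12 with gapmer 1, 13.11, 13.05 and 12.78 with gapmer 2, and 13.91, 13.30 and 13.27 with gapmer 1+2, against 12.61, 13.49 and 13.41 with scrambled gapmer. The gapmer 1 arrays lay above all scrambled arrays, as 7.08% of units tested did, and the other gapmer arrays overlapped them. The change with gapmer 1 was 1.09 (SE 0.28, limma adjusted p = 0.0299), a call that was lost after quantile normalization, with only the contrast's groups in the fit and with a replicate block. With gapmer 2 and gapmer 1+2 the changes were -0.19 and 0.32, neither called.

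HERC5, the ligase that attaches ISG15, was called lower with LINC00158 gapmer 1+2 alone. Its signal there was 5.95, 6.72 and 6.79, against 8.20, 7.94 and 7.73 with scrambled gapmer, a change of -1.47 (SE 0.39, limma adjusted p = 0.032). The other LINC00158 gapmers gave -1.26 and -1.05, with no overlap of arrays and no call. USP18, which removes ISG15 and restrains the interferon receptor, and HERC6, a relative of HERC5, were not called in any treatment. Their changes ranged from -0.97 to 0.22 for USP18 and from -0.65 to 0.63 for HERC6. HERC6 has 3 units, and a dimmer one was called lower with CYTOR gapmer 2, by -0.79 (limma adjusted p = 0.036).

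DTX3L, an E3 ligase, and PARP9, its partner, act with PARP14 in ADP-ribosylation, and DTX3L was called lower with all gapmers of the LINC00158 and RP11-161H23.5 experiments. DTX3L in the LINC00158 experiment was at 9.21, 7.91 and 8.06 with gapmer 1, 7.98, 7.28 and 8.37 with gapmer 2, and 8.27, 7.49 and 8.19 with gapmer 1+2, against 10.43, 9.66 and 10.08 with scrambled gapmer. DTX3L in the RP11-161H23.5 arrays was at 8.15, 8.02 and 7.80, at 8.0, 8.19 and 7.96, and at 7.76, 7.45 and 7.59 with the same gapmer order, against 9.92, 8.62 and 9.65 with scrambled gapmer. No gapmer array reached a scrambled array in either experiment. The changes were -1.66, -2.18 and -2.07 with the LINC00158 gapmers (SE 0.39, limma adjusted p = 0.026, 0.0074 and 0.0097). They were -1.41, -1.35 and -1.80 with the RP11-161H23.5 gapmers (SE 0.28, limma adjusted p = 0.0101, 0.0127 and 0.0027). The CYTOR gapmers gave -0.01, -0.55 and -0.53 for DTX3L, none called.

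PARP14 was called lower with each LINC00158 gapmer. Its arrays read 13.95, 12.13 and 13.05, then 12.74, 12.34 and 12.36, then 12.96, 12.11 and 12.71 with gapmer 1, gapmer 2 and gapmer 1+2, against 14.71, 14.26 and 14.38 with scrambled gapmer. The changes were -1.41, -1.97 and -1.86 (SE 0.39, limma adjusted p = 0.0434, 0.0103 and 0.0141), and no gapmer array reached a scrambled array. PARP14 changed by -1.53 with RP11-161H23.5 gapmer 1+2 (SE 0.41, limma adjusted p = 0.0276), and that call and the one with LINC00158 gapmer 1 were lost after quantile normalization. PARP9 was called lower with RP11-161H23.5 gapmer 1+2, at 7.99, 7.31 and 7.60 against 9.91, 8.41 and 9.61 with scrambled gapmer (change -1.68, SE 0.37, limma adjusted p = 0.0121). It was also called lower with CYTOR gapmer 2 (change -0.99, SE 0.28, limma adjusted p = 0.0412), a call lost after quantile normalization. PARP9 and DTX3L are neighbours that point in opposite directions, and the same ISRE letters lie 41 bases before the PARP9 start and 6 bases before the DTX3L start. In the LINC00158 experiment PARP9 changed by -0.19, -1.06 and -0.87, none called, beside the called falls of DTX3L.

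**Figure D2:**
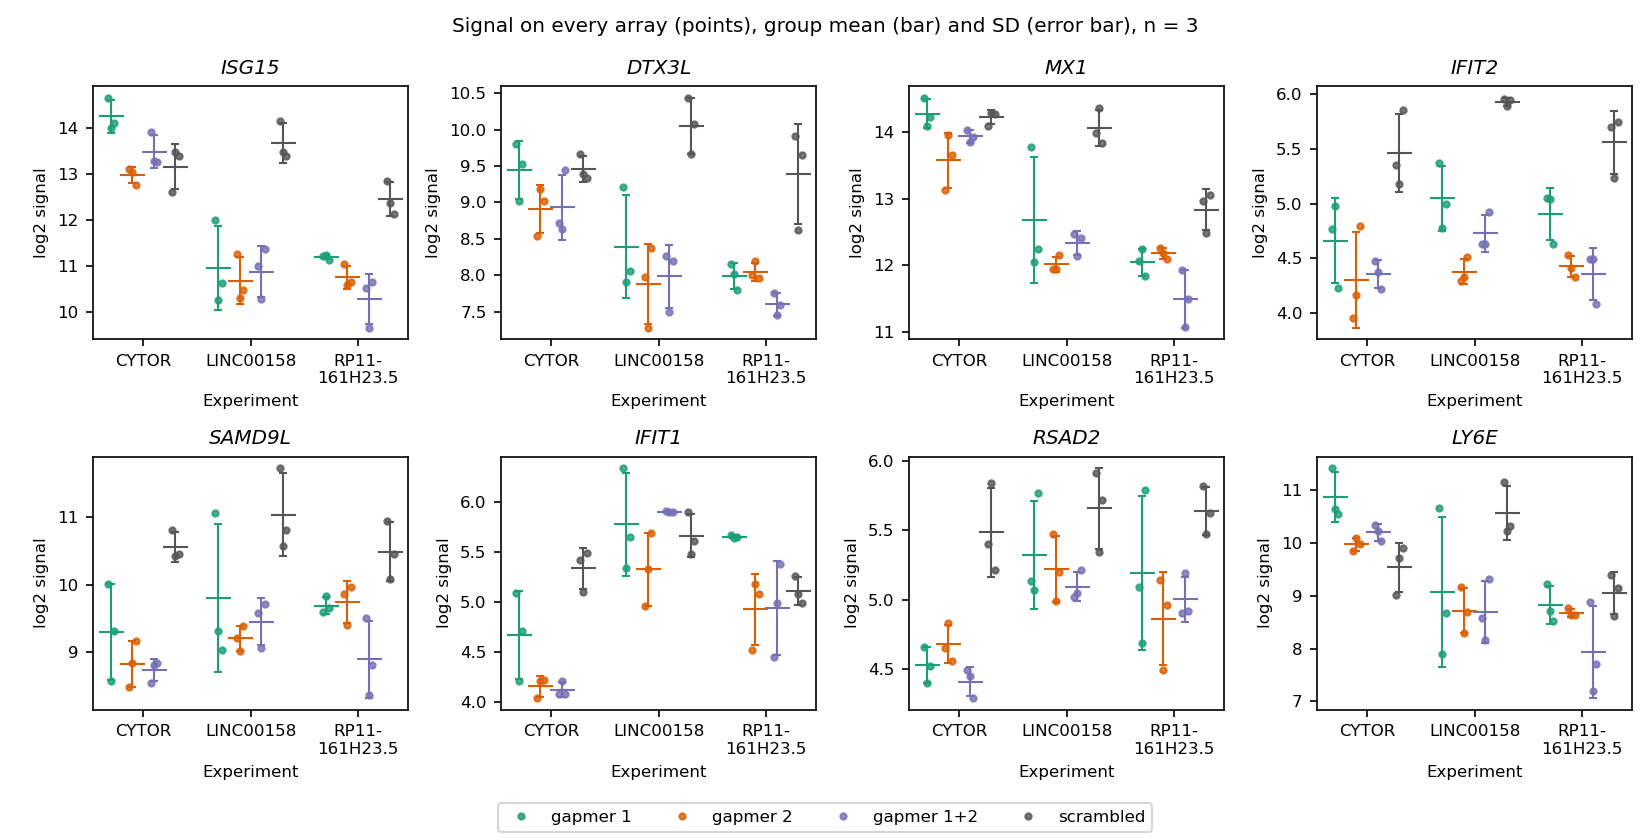
Log2 signal per array (points), group mean (bar) and SD (line) of 8 members in the 12 groups, each experiment running from gapmer 1, gapmer 2 and gapmer 1+2 to scrambled gapmer. ISG15, DTX3L and MX1 lie lower with LINC00158 and RP11-161H23.5 gapmers than with scrambled gapmer. The means of IFIT2 and RSAD2 lie lower with all 9 treatments, and IFIT1 lies lower with the CYTOR gapmers.

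The MX proteins are dynamin-like GTPases that block viral replication. MX1 in the LINC00158 experiment was at 13.77, 12.05 and 12.24 with gapmer 1, 11.95, 11.95 and 12.15 with gapmer 2, and 12.47, 12.14 and 12.41 with gapmer 1+2, against 13.99, 14.37 and 13.84 with scrambled gapmer. All gapmer arrays lay below the scrambled arrays, the first gapmer 1 array by little. The changes were -1.38, -2.05 and -1.73 (SE 0.37, limma adjusted p = 0.04, 0.0076 and 0.0155). The call with gapmer 1 was lost after quantile normalization, where the change was -0.63 (limma adjusted p = 0.116), and in 5 of 6 fits that left out 1 array.

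With RP11-161H23.5 gapmers MX1 was at 12.07, 12.24 and 11.84, at 12.26, 12.19 and 12.09, and at 11.93, 11.07 and 11.49 with gapmer 1, gapmer 2 and gapmer 1+2, against 12.96, 12.49 and 13.06 with scrambled gapmer. It was called lower with gapmer 1 (change -0.79, SE 0.23, limma adjusted p = 0.0468) and gapmer 1+2 (change -1.34, SE 0.23, limma adjusted p = 0.0043). The groups did not overlap, but the call with gapmer 1 was lost without the signal filter, after quantile normalization and in 3 other settings. With the CYTOR gapmers MX1 changed by 0.06, -0.65 and -0.29, none called.

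MX2 was called lower with LINC00158 gapmer 2, at 8.52, 8.61 and 8.97 against 10.43, 10.07 and 9.93 with scrambled gapmer (change -1.44, SE 0.40, limma adjusted p = 0.0317). This call was lost after quantile normalization (change -0.82, limma adjusted p = 0.0613) and whichever 1 array was left out. MX2 did not follow MX1 in the RP11-161H23.5 experiment, where its changes were 0.21, 0.27 and -0.16 and none was called. The direction of MX2 there depended on the control: set against LINC00158 scrambled arrays, gapmer 1 gave -1.07 and gapmer 2 gave -1.01.

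The IFIT proteins bind foreign RNA ends, and of these only IFIT2 was called in all experiments. IFIT2 was at 4.77, 4.98 and 4.23, at 3.95, 4.16 and 4.79, and at 4.47, 4.37 and 4.22 with CYTOR gapmer 1, gapmer 2 and gapmer 1+2, against 5.35, 5.18 and 5.86 with scrambled gapmer. Its LINC00158 values were at 5.37, 4.78 and 5.0, at 4.29, 4.33 and 4.51, and at 4.63, 4.63 and 4.92, against 5.96, 5.89 and 5.95 with scrambled gapmer. IFIT2 in the RP11-161H23.5 arrays was at 5.05, 5.04 and 4.63, at 4.53, 4.41 and 4.33, and at 4.49, 4.49 and 4.08, against 5.70, 5.23 and 5.75 with scrambled gapmer. Every gapmer array lay below every scrambled array of its experiment, as 16.6% to 26.2% of units tested did per treatment. The changes were -0.80, -1.16 and -1.11 with the CYTOR gapmers (SE 0.27), called with gapmer 2 and gapmer 1+2 (limma adjusted p = 0.0198 and 0.0292). With the LINC00158 gapmers they were -0.88, -1.56 and -1.21 (SE 0.19, limma adjusted p = 0.0186, 0.0015 and 0.0049). With the RP11-161H23.5 gapmers they were -0.65, -1.14 and -1.21 (SE 0.20), called with gapmer 2 and gapmer 1+2 (limma adjusted p = 0.0059 and 0.0036). Both CYTOR calls were lost after quantile normalization.

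IFIT5, which binds RNA and tRNA, was called lower with each RP11-161H23.5 gapmer. It was at 5.06, 5.53 and 5.37, at 5.39, 5.18 and 5.13, and at 4.95, 4.67 and 4.94 with gapmer 1, gapmer 2 and gapmer 1+2, against 6.41, 6.08 and 6.26 with scrambled gapmer. The changes were -0.93, -1.02 and -1.40 (SE 0.18, limma adjusted p = 0.0081, 0.0055 and 0.000963), with no overlap between gapmer and scrambled arrays. These calls held in every other setting run against the same scrambled arrays.

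IFIT3, the partner that stabilises IFIT1, was the brightest unit of the family. In the LINC00158 experiment it was at 10.88, 9.83 and 10.20, at 9.71, 9.53 and 9.69, and at 10.20, 9.94 and 10.76 with gapmer 1, gapmer 2 and gapmer 1+2, against 11.66, 10.86 and 10.80 with scrambled gapmer. Gapmer 2 gave -1.46 (SE 0.32, limma adjusted p = 0.0144), and the other gapmers gave -0.80 and -0.81 without a call. The gapmer 2 call was lost after quantile normalization (change -0.74, limma adjusted p = 0.0554). With RP11-161H23.5 gapmer 2 and gapmer 1+2 IFIT3 changed by -1.40 and -1.50 (SE 0.32, limma adjusted p = 0.018 and 0.0106), with no overlap of arrays.

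IFIT1 went another way. With CYTOR gapmer 2 and gapmer 1+2 it averaged 4.16 ± 0.10 and 4.12 ± 0.08, against 5.34 ± 0.21 with scrambled gapmer (SD, n = 3 each). The changes were -1.18 and -1.21 (SE 0.22, limma adjusted p = 0.0077 and 0.009), and both calls held in every other setting run against the same scrambled arrays. With the LINC00158 gapmers IFIT1 changed by 0.11, -0.34 and 0.24 and with the RP11-161H23.5 gapmers by 0.54, -0.18 and -0.17, none called.

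The OAS enzymes sense double-stranded RNA and make the 2′-5′ oligoadenylates that activate RNase L, while OASL lacks that activity. OAS1 was at 10.92, 9.36 and 9.64, at 9.52, 8.88 and 9.41, and at 9.62, 8.95 and 10.08 with LINC00158 gapmer 1, gapmer 2 and gapmer 1+2, against 11.55, 11.52 and 10.94 with scrambled gapmer. Gapmer 2 and gapmer 1+2 gave -2.07 and -1.79 (SE 0.41, limma adjusted p = 0.0103 and 0.019), and gapmer 1 gave -1.36 without a call. OAS1 with RP11-161H23.5 gapmer 1+2 was at 9.86, 8.67 and 9.05, against 10.94, 10.21 and 10.85 with scrambled gapmer, a change of -1.47 (SE 0.30, limma adjusted p = 0.008). With CYTOR gapmer 1 it stood at 12.23, 11.66 and 11.56, against 11.09, 11.39 and 11.39 with scrambled gapmer, a change of 0.53 that was not called although the arrays did not overlap. OAS2 was called lower with LINC00158 gapmer 1 and gapmer 2 (changes -1.13 and -1.38, SE 0.31, limma adjusted p = 0.0414 and 0.0155) and with RP11-161H23.5 gapmer 1+2 (change -1.44, SE 0.39, limma adjusted p = 0.0284). The OAS2 call with LINC00158 gapmer 1 was lost after quantile normalization (limma adjusted p = 0.0782), with the replicate block and in 5 of 6 fits that left out 1 array.

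OASL and OAS3 had their calls in the CYTOR experiment. OASL was at 3.83, 3.68 and 3.63, at 3.86, 3.84 and 3.57, and at 3.90, 3.56 and 3.91 with CYTOR gapmer 1, gapmer 2 and gapmer 1+2, against 4.53, 4.41 and 4.45 with scrambled gapmer. The changes were -0.75, -0.71 and -0.67 (SE 0.16, limma adjusted p = 0.0157, 0.0188 and 0.0282), with no overlap. These signals lie near that of the median unit, and all 3 calls were lost after quantile normalization. OAS3 changed by -0.78 and -0.65 with CYTOR gapmer 2 and gapmer 1+2 (SE 0.17, limma adjusted p = 0.0159 and 0.0392), also lost after quantile normalization. Its mean change was -0.62 over the CYTOR gapmers, -0.60 over the LINC00158 gapmers and -0.68 over the RP11-161H23.5 gapmers. No difference of OAS3 between experiments was called.

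RSAD2, or viperin, makes a chain-terminating nucleotide, and CMPK2, its genomic neighbour, is a nucleotide kinase. RSAD2 was at 4.66, 4.40 and 4.52, at 4.65, 4.83 and 4.56, and at 4.49, 4.45 and 4.29 with CYTOR gapmer 1, gapmer 2 and gapmer 1+2, against 5.40, 5.84 and 5.21 with scrambled gapmer. The changes were -0.96, -0.80 and -1.07 (SE 0.19, limma adjusted p = 0.0105, 0.0195 and 0.0082), with no overlap, and all 3 calls were lost after quantile normalization. In the other experiments RSAD2 changed by -0.33 to -0.77 with no call. A second, slightly dimmer RSAD2 unit did not follow there, with changes from -0.08 to 0.55. CMPK2 changed by -0.19, -1.43 and -1.44 with the CYTOR gapmers (SE 0.39), called with gapmer 2 and gapmer 1+2 (limma adjusted p = 0.0353 and 0.0415), both lost after quantile normalization. It was also called lower with RP11-161H23.5 gapmer 1+2 (change -1.23, SE 0.34, limma adjusted p = 0.0302).

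EIF2AK2, or PKR, shuts down translation when it binds double-stranded RNA. It was at 12.06, 11.82 and 11.67, at 11.87, 12.13 and 12.25, and at 11.71, 11.52 and 12.23 with RP11-161H23.5 gapmer 1, gapmer 2 and gapmer 1+2, against 13.12, 12.69 and 12.68 with scrambled gapmer. The changes were -0.98, -0.75 and -1.01 (SE 0.22, limma adjusted p = 0.0161, 0.0483 and 0.0117), with no overlap, and the calls with gapmer 2 and gapmer 1+2 were lost after quantile normalization. With LINC00158 gapmer 2 and gapmer 1+2 EIF2AK2 changed by -0.99 and -1.0 (SE 0.30, limma adjusted p = 0.0439 and 0.0463), and both calls were lost without the signal filter and after quantile normalization. With the CYTOR gapmers it changed by 0.65, -0.11 and 0.04, none called.

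ISG20, a nuclease that degrades single-stranded RNA, was called lower with RP11-161H23.5 gapmer 1+2 and LINC00158 gapmer 2. With RP11-161H23.5 gapmer 1+2 it was at 10.73, 9.88 and 10.62, against 12.42, 11.90 and 12.15 with scrambled gapmer (change -1.75, SE 0.22, limma adjusted p = 0.000989). The single RP11-161H23.5 gapmers left ISG20 between 11.79 and 11.92, changes of -0.36 and -0.30 that were not called. With LINC00158 gapmer 2 it was at 11.32, 11 and 11.15, against 13.78, 12.91 and 12.91 with scrambled gapmer (change -2.04, SE 0.54, limma adjusted p = 0.0271), a call lost after quantile normalization.

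IFI16, a nuclear DNA sensor, was the brightest unit of this role group. It was at 15.89, 15.54 and 15.31, at 14.79, 15.19 and 14.56, and at 15.15, 15.15 and 15.19 with CYTOR gapmer 1, gapmer 2 and gapmer 1+2, against 15.85, 16.32 and 15.60 with scrambled gapmer. The change with gapmer 2 was -1.08 (SE 0.24, limma adjusted p = 0.0151), and gapmer 1+2 gave -0.76 with no overlap and no call. The RP11-161H23.5 gapmers gave 0.33, 0.14 and -0.01 for IFI16, none called.

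SAMD9L and SAMD9 are adjacent genes whose products restrict translation and growth. SAMD9L was at 10.01, 8.58 and 9.32, at 8.48, 8.84 and 9.17, and at 8.55, 8.82 and 8.84 with CYTOR gapmer 1, gapmer 2 and gapmer 1+2, against 10.81, 10.42 and 10.45 with scrambled gapmer. Its LINC00158 values were at 11.06, 9.32 and 9.03, at 9.22, 9.02 and 9.39, and at 9.58, 9.07 and 9.72, against 11.73, 10.57 and 10.81 with scrambled gapmer. SAMD9L in the RP11-161H23.5 arrays was at 9.60, 9.83 and 9.65, at 9.87, 9.40 and 9.97, and at 9.51, 8.37 and 8.81, against 10.95, 10.08 and 10.45 with scrambled gapmer. Only the first LINC00158 gapmer 1 array reached the scrambled arrays of its experiment. SAMD9L changed by -1.26, -1.73 and -1.82 with the CYTOR gapmers (SE 0.32, limma adjusted p = 0.0276, 0.0075 and 0.0081). With LINC00158 gapmer 2 and gapmer 1+2 it changed by -1.83 and -1.58 (SE 0.47, limma adjusted p = 0.0259 and 0.0462), and the call with gapmer 1+2 was lost without the signal filter and after quantile normalization. With RP11-161H23.5 gapmer 1+2 it changed by -1.60 (SE 0.30, limma adjusted p = 0.0059), and the single RP11-161H23.5 gapmers gave -0.80 and -0.75 without a call. SAMD9 was called with RP11-161H23.5 gapmer 1+2 alone (change -1.05, SE 0.27, limma adjusted p = 0.0237).

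IRF9, the DNA-binding part of ISGF3, was called lower with CYTOR gapmer 2 alone. It was at 8.93, 9.10 and 9.57 there, against 10.07, 10.08 and 9.65 with scrambled gapmer (change -0.73, SE 0.21, limma adjusted p = 0.0417), and the call was lost in 5 other settings, quantile normalization and the replicate block among them. IRF9 lay below its scrambled mean in all 9 treatments, with changes between -0.24 and -0.87.

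LY6E, a membrane-anchored surface protein that limits entry of some viruses, was the other member called higher with CYTOR gapmer 1. With CYTOR gapmer 1 it was at 11.42, 10.64 and 10.55, against 9.02, 9.71 and 9.90 with scrambled gapmer (change 1.33, SE 0.27, limma adjusted p = 0.0127). The gapmer arrays all lay above the scrambled arrays, as 7.08% of units tested did. With CYTOR gapmer 1+2 LY6E changed by 0.66, also without overlap (7.72% of units lay above) but not called. With LINC00158 gapmer 1, gapmer 2 and gapmer 1+2 it was at 10.66, 7.90 and 8.67, at 9.16, 8.30 and 8.70, and at 8.58, 8.16 and 9.32, against 11.15, 10.22 and 10.33 with scrambled gapmer. These changes of -1.49, -1.85 and -1.88 (SE 0.59) missed the threshold (limma adjusted p = 0.121, 0.053 and 0.0542). A second LY6E unit did not follow the first with CYTOR gapmer 1, where it changed by -0.52, and with the mean of both units the call was lost. With LINC00158 gapmer 1 this second unit was called lower, by -0.80 (limma adjusted p = 0.0368).

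IFI6, a membrane protein that counters cell death, was called lower with CYTOR gapmer 2 (change -1.10, SE 0.28, limma adjusted p = 0.0267) and LINC00158 gapmer 2 (change -1.08, SE 0.28, limma adjusted p = 0.0252), both lost after quantile normalization. IFI27, a mitochondrial protein and a common marker of interferon exposure, was called lower with LINC00158 gapmer 1 and gapmer 2 (changes -1.31 and -1.19, SE 0.34, limma adjusted p = 0.035 and 0.0359). BST2, or tetherin, which holds virions at the cell surface, changed by -0.98, -1.33 and -1.25 with the LINC00158 gapmers without a call. PLSCR1, a phospholipid scramblase, was not called in any treatment, with changes between -1.09 and 0.62.

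IFI44L, which has IFI44 beside it in the genome, was the brightest unit among the other induced genes. IFI44L in the LINC00158 arrays was at 14.00, 12.42 and 12.02, at 12.93, 12.77 and 13.99, and at 12.62, 12.28 and 14.09 with gapmer 1, gapmer 2 and gapmer 1+2, against 15.04, 14.76 and 15.12 with scrambled gapmer. No gapmer array reached a scrambled array, and the changes were -2.16, -1.74 and -1.98 (SE 0.56), called with gapmer 1 and gapmer 1+2 (limma adjusted p = 0.0354 and 0.0386). With RP11-161H23.5 gapmer 1+2 it changed by -1.54 (SE 0.45, limma adjusted p = 0.0384), and these 3 calls were lost after quantile normalization. IFI44 changed by -0.65 to 0.09 over all treatments and was not called.

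SP110, a nuclear-body protein, was called lower with LINC00158 gapmer 2 and gapmer 1+2 (change -1.51 each, SE 0.38, limma adjusted p = 0.024 and 0.0267) and with RP11-161H23.5 gapmer 1+2 (change -0.96, SE 0.29, limma adjusted p = 0.0463). The calls with LINC00158 gapmer 2 and RP11-161H23.5 gapmer 1+2 were lost after quantile normalization. TRIM22, a tripartite-motif antiviral protein, was called lower with RP11-161H23.5 gapmer 2 and gapmer 1+2 (changes -1.16 and -1.42, SE 0.34, limma adjusted p = 0.0466 and 0.0176). Its other unit did not follow, and both calls were lost with the mean of its units. XAF1, a proapoptotic protein, IFI35 and EPSTI1 were not called in any treatment. XAF1 changed by 0.56, 0.35 and 0.54 with the RP11-161H23.5 gapmers, against -0.66, -0.50 and -0.33 with the LINC00158 gapmers.

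The members can be sorted by where they were called. IFIT2 and SAMD9L were the 2 called lower in at least 1 treatment of every experiment. A group of 11 was called in the LINC00158 and RP11-161H23.5 experiments but not in the CYTOR experiment: ISG15, DTX3L, PARP14, MX1, EIF2AK2, OAS1, OAS2, ISG20, IFIT3, IFI44L and SP110. Another 6 were called in the CYTOR experiment only, namely IFIT1, OASL, OAS3, RSAD2, IFI16 and IRF9. HERC5, IFI27 and MX2 were called with LINC00158 gapmers only, and IFIT5, SAMD9 and TRIM22 with RP11-161H23.5 gapmers only. No treatment called 8 members: USP18, HERC6, BST2, PLSCR1, IFI35, IFI44, EPSTI1 and XAF1. Among 18686 named genes kept in all 3 fits, 1.13% were called lower in every experiment, against 5.41% of members. The LINC00158 and RP11-161H23.5 pattern held 29.7% of members and 5.81% of named genes. The patterns with calls in 1 experiment held 16.2% of members and 10.8% of named genes for CYTOR, 8.11% and 13.8% for LINC00158, and 8.11% and 5.98% for RP11-161H23.5, so the LINC00158 share of members was below that of named genes. No treatment called 21.6% of members and 48.7% of named genes. A call in one experiment and not in another does not show a difference, which needs its own test.

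That test compared the mean change over 3 gapmer groups between experiments, in 1 fit of 36 arrays. The gapmer arrays of each experiment form their own array set, so experiment and array set cannot be told apart in it. Between the LINC00158 and CYTOR experiments 12 members differed, 11 of them lower with the LINC00158 gapmers and IFIT1 higher, where 25.8% of units differed (8.7% lower, 17.1% higher). The difference was largest for ISG15, at -3.24 (SE 0.42, limma adjusted p = 3.02e-06), followed by LY6E at -2.55 (SE 0.54, limma adjusted p = 0.000948) and ISG20 at -1.98 (SE 0.47, limma adjusted p = 0.0027). IFIT1 differed by 1.03 (SE 0.28, limma adjusted p = 0.0085). After quantile normalization the differences of MX1, EIF2AK2, PARP14, IFI44L and SP110 were no longer called, at -0.63, -0.36, -0.67, -0.87 and -0.69.

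Between the RP11-161H23.5 and CYTOR experiments 5 members differed, where 19% of units did (4.64% lower, 14.4% higher). Of the 37 members this was a smaller share than of units, though 8.11% of members were lower. ISG15, EIF2AK2 and DTX3L were lower with the RP11-161H23.5 gapmers, by -2.11, -1.10 and -1.16, and IFIT1 and IFI16 were higher, by 1.08 and 0.88. Between the LINC00158 and RP11-161H23.5 experiments only MX2 and XAF1 differed, by -1.26 and -0.98, where 5.14% of units were lower and 4.52% higher. These were 5.41% of members, near the share of units that were lower. The MX2 difference was lost after quantile normalization (-0.81, limma adjusted p = 0.0597), and the XAF1 one with only the groups compared in the fit.

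**Figure D3:**
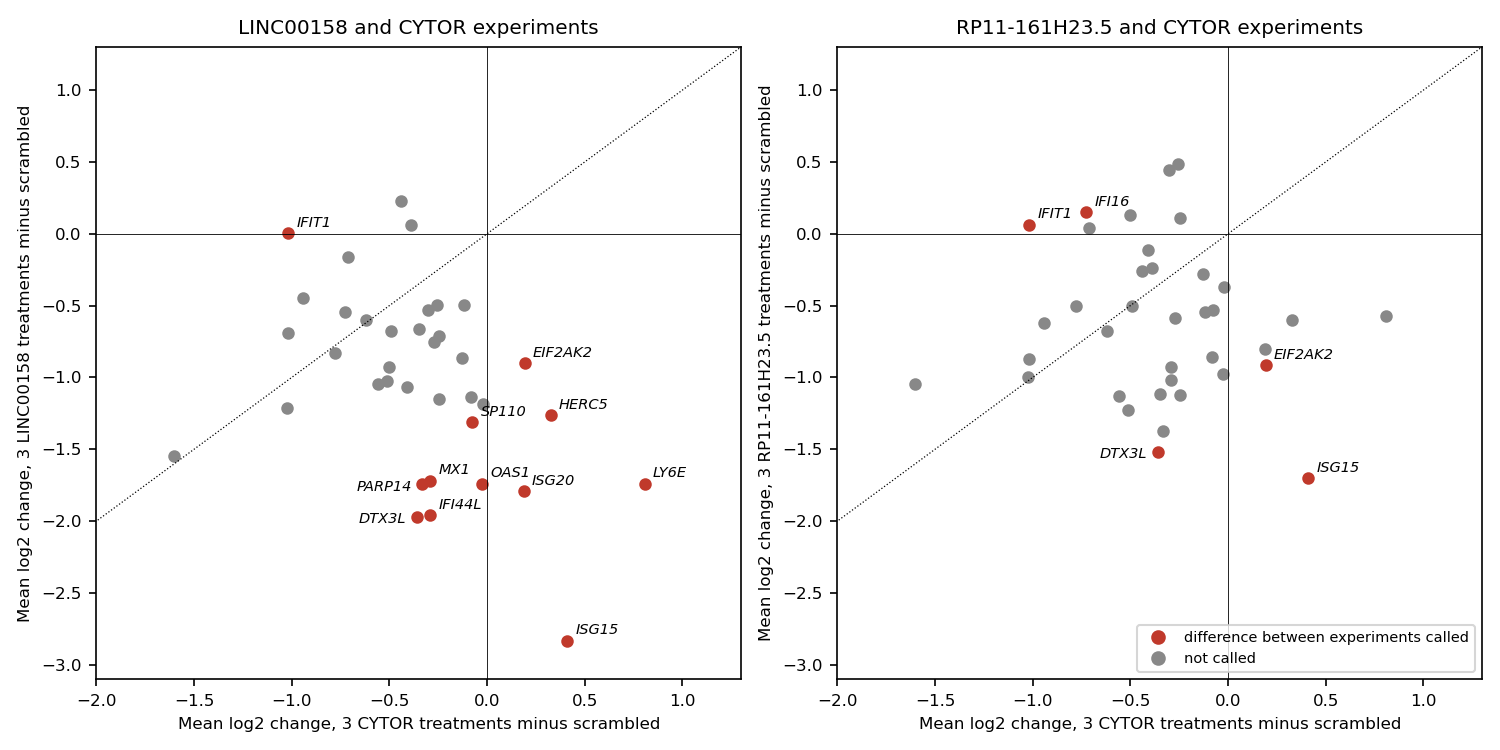
Mean log2 change over the 3 gapmer treatments per member in one experiment against another, with members whose difference was called in red and the diagonal for equal change. ISG15 lies farthest from the diagonal in the LINC00158 and CYTOR panel, at a difference of -3.24, with IFIT1 on the other side at 1.03.

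Within an experiment no member was called between gapmer 1 and gapmer 2 or between gapmer 1+2 and the single gapmers, where limma also called 0% of all units. At an unadjusted p under 0.05, 14 members separated CYTOR gapmer 1 from gapmer 2, where 6.4% of units did. The median member was higher by 0.51 with CYTOR gapmer 1 than with gapmer 2, and 12 of 37 members had all gapmer 1 arrays above all gapmer 2 arrays, where 5.66% of units did. RP11-161H23.5 gapmer 1+2 also separated from the single gapmers at an unadjusted p under 0.05 for 14 members, where 8.37% of units did. There 35 of 37 members were lower with gapmer 1+2, with a median of -0.42. In the other 4 comparisons 0 to 3 members passed at an unadjusted p under 0.05, where 4.22% to 6.57% of units did.

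The scrambled groups themselves differed for a few members. MX1 averaged 12.84 in RP11-161H23.5 scrambled arrays, against 14.07 in LINC00158 and 14.22 in CYTOR scrambled arrays, and limma called both differences (-1.23 and -1.39, SE 0.22, adjusted p = 0.02 and 0.0217). MX2 had lower signals in these RP11-161H23.5 scrambled arrays as well, with differences of -1.28 and -1.12 (SE 0.20, limma adjusted p = 0.0147 and 0.0345). LY6E was lower by 1.52 in RP11-161H23.5 than in LINC00158 scrambled arrays (difference -1.52, SE 0.34, limma adjusted p = 0.0376). These were 3 members where 5.19% of units were called, and 2 members where 1.53% were, and none between the LINC00158 and CYTOR scrambled groups, where limma called 0% of units and 4 members passed an unadjusted p under 0.05 beside 9.73% of units. The lowest scrambled mean was in the RP11-161H23.5 experiment for 25 of 37 members, and the median member spanned 0.54 between the 3 scrambled means. All these MX1, MX2 and LY6E calls were lost after quantile normalization, which called HERC5 instead, higher by 1.53 in RP11-161H23.5 than in CYTOR scrambled arrays. With 1 array left out, 0 to 2 and 0 to 1 members were called. A change in the RP11-161H23.5 experiment therefore starts from lower MX1, MX2 and LY6E than in the LINC00158 experiment.

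The median signal of bright units was lower with some gapmers, so the members were read beside genes of like signal. In the LINC00158 experiment the 8 members with a mean signal of at least 12 had median changes of -1.39, -1.86 and -1.70 with gapmer 1, gapmer 2 and gapmer 1+2, against -0.84, -0.99 and -0.76 for the 916 named genes of that range. In the RP11-161H23.5 experiment these 8 had medians of -0.63, -0.70 and -1.44, against -0.18, -0.12 and -0.37. In the CYTOR experiment they had medians of 0.18, -0.42 and -0.13, against 0.23, 0.06 and 0.14. The 7 members under a signal of 6 had medians of -0.67, -0.71 and -0.67 with the CYTOR gapmers, against -0.14 for the named genes of that range with each gapmer. With the LINC00158 gapmers these 7 had medians of -0.66, -0.50 and -0.52, against -0.10, -0.10 and -0.12. Gaps were smaller in the middle ranges with LINC00158 gapmer 1. There the members had medians of -0.53, -0.98 and -0.91 at signals of 6 to 8, 8 to 10 and 10 to 12, against -0.42, -0.67 and -0.88. Named genes of like signal thus fell there too. With CYTOR gapmer 2 and gapmer 1+2 the members lay below the named genes in all 5 ranges of signal, and with gapmer 1 in those under 6 and from 12 up. The 7 dim members are IFIT1, IFIT2, IFIT5, OASL, RSAD2, IFI27 and XAF1.

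**Figure D4:**
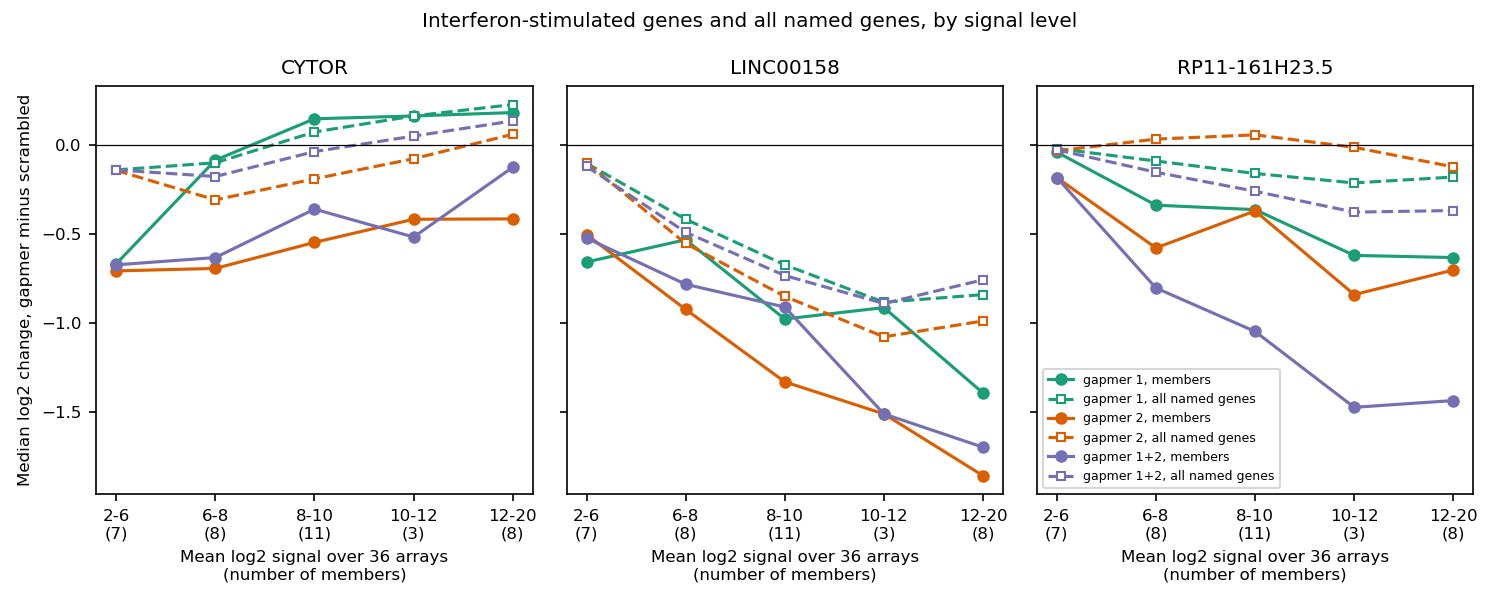
Median log2 change of members and of all named genes in 5 bins of mean log2 signal, for each of the 9 treatments. Members lie below the named genes in every bin with each LINC00158 and RP11-161H23.5 gapmer and with CYTOR gapmer 2 and gapmer 1+2, while with CYTOR gapmer 1 the 3 middle bins lie close to or above the named genes.

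Some arrays stood apart within their group. The median signal over the members was 9.56 on LINC00158 gapmer 1 replicate 1, against 7.90 and 8.06 on the other arrays of that group and 8.98 to 9.45 on the scrambled arrays, and the bright-unit median of that array was 14.43, against 13.60 and 13.56. Without it 25 members were called lower with LINC00158 gapmer 1, against 8 with it, and 11 differed between the LINC00158 and RP11-161H23.5 experiments, against 2 with it. CYTOR gapmer 1 replicate 1 stood at a member median of 9.68, against 8.75 and 8.56 on the other arrays of its group and 8.93 to 9.02 on the scrambled arrays. The ISG15 call with CYTOR gapmer 1 was lost when any 1 of its gapmer 1 arrays or CYTOR scrambled replicate 1 was left out (limma adjusted p up to 0.0998), while the LY6E call there was kept with each array left out.

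Within groups the members also varied together from array to array. After group means were removed, the median correlation between member pairs over 36 arrays was r = 0.446, and 94.7% of the 666 pairs were above 0. Arrays of a group share a set, but their bright-unit level varied. The 36 arrays include LINC00158 and CYTOR gapmer 1 replicate 1, which stood apart from their groups. Named genes with a mean signal of at least 8 correlated with the member mean at a median r of 0.497. For the 22 members of that range the median r was 0.744. The closest pairs were ISG20 with LY6E (r = 0.874), ISG20 with ISG15 (r = 0.864) and ISG15 with LY6E (r = 0.847). IFI44 followed its neighbour IFI44L (r = 0.789). SAMD9L followed the mean of the other members most closely (r = 0.86), and RSAD2 (r = 0.047) and XAF1 (r = 0.193) least.

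Other genes of the pathway were counted in the same way. Of 33 further interferon-stimulated genes measured, 7, 10 and 7 were called lower with LINC00158 gapmer 1, gapmer 2 and gapmer 1+2, 6, 5 and 14 with the RP11-161H23.5 gapmers, and 2, 2 and 4 with the CYTOR gapmers. Of those tested these were 21.9%, 31.2% and 21.9% with the LINC00158 gapmers (6.28%, 10.5% and 8.82% of all units), 18.8%, 15.6% and 43.8% with the RP11-161H23.5 gapmers (7.1%, 7.03% and 9.3%) and 6.06%, 6.06% and 12.1% with the CYTOR gapmers (11.4%, 12.4% and 8.93%). The CYTOR shares were thus below that of all units with the single gapmers and near it with gapmer 1+2. IFITM1, a membrane protein that blocks virus fusion, changed by -2.53, -2.93 and -2.70 with the LINC00158 gapmers and by -1.14, -1.14 and -2.13 with the RP11-161H23.5 gapmers, all called. With CYTOR gapmer 1 IFITM1 was called higher, at 1.28 (SE 0.30, limma adjusted p = 0.0201), as ISG15 and LY6E were. UBE2L6, the enzyme that carries ISG15 to HERC5, changed by -2.07, -2.11 and -1.92 with the LINC00158 gapmers and by -1.94 with RP11-161H23.5 gapmer 1+2. UBA7, which activates ISG15, was called lower with CYTOR gapmer 1 and gapmer 1+2, by -1.35 and -1.51, and LGALS3BP, a secreted glycoprotein, with all 3 CYTOR gapmers, by -0.91, -0.86 and -0.79. PML, of the nuclear bodies, changed by -0.96, -1.37 and -1.51 with the RP11-161H23.5 gapmers, and TRIM21, a cytosolic antibody receptor, by -1.36, -1.43 and -1.80 with the LINC00158 gapmers. SLFN11 was called higher with LINC00158 gapmer 2 and gapmer 1+2, at 0.85 and 0.91.

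Upstream of the members, 9 interferon receptor chains and kinases were measured. None was called with the CYTOR gapmers, 0, 4 and 5 were called lower with LINC00158 gapmer 1, gapmer 2 and gapmer 1+2, and 1, 1 and 3 with the RP11-161H23.5 gapmers. With 6.28% to 12.4% of all units called lower per treatment, 0 or 1 of 9 is near that share, and the other shares were 44.4%, 55.6% and 33.3%. IFNLR1, a receptor chain for type III interferon, changed by -2.39 and -2.14 with LINC00158 gapmer 2 and gapmer 1+2, and the kinase TYK2 by -2.16 and -1.92. TYK2 also changed by -0.88 and -1.19 with RP11-161H23.5 gapmer 2 and gapmer 1+2, and IFNGR1, a receptor chain for interferon gamma, by -1.02 with gapmer 1+2. Among 6 interferon regulatory factors, IRF1 was called lower in every experiment: by -1.23 and -0.92 with CYTOR gapmer 2 and gapmer 1+2, by -1.65 and -1.59 with the same LINC00158 gapmers, and by -1.39 with RP11-161H23.5 gapmer 1+2. IRF5 changed by -0.86, -1.16 and -1.02 with the CYTOR gapmers and by -1.10 with LINC00158 gapmer 2. These are values of single called genes, and no count over the 6 factors is set against the share of all units.

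Of 19 interferon genes measured, 8 to 11 passed the signal filter, and 0 to 2 were called lower in a treatment. A single gene is already 9.09% to 12.5% of those tested, where 6.28% to 12.4% of all units were called lower, so the counts of 0 and 1 are near that share. IFNL3 was called lower with both LINC00158 gapmer 2 and gapmer 1+2 (changes -1.0 and -0.98). IFNL1 was called higher with RP11-161H23.5 gapmer 2 and gapmer 1+2 (changes 0.65 and 0.54), where 5.2% and 6.98% of all units were. Their mean signals of 4.29 for IFNL3 and 4.49 for IFNL1 lie near the 3.94 of the median unit. These calls therefore do not show that the genes are expressed. Of 12 genes known mainly for their response to interferon gamma, 1 to 3 were called lower per treatment, or 9.09% to 27.3% of those tested, and the treatments with 1 gene were near the share of all units. The guanylate-binding protein gene GBP5 changed by -1.02, -0.94 and -1.19 with the CYTOR gapmers and by -0.74, -0.88 and -0.87 with the LINC00158 gapmers, and WARS1, a tRNA synthetase, by -1.51, -1.63 and -1.70 with the LINC00158 gapmers and by -0.92, -1.13 and -0.95 with the RP11-161H23.5 gapmers. Among 8 negative regulators of the pathway, of which 5 were tested, 0 to 2 were called lower per treatment, a number too small to set against the share of all units. None was called with the CYTOR gapmers, and the phosphatase gene PTPN1 was called lower in the other experiments, by -1.21 and -1.57 with LINC00158 gapmer 2 and gapmer 1+2 and by -0.82 and -0.95 with RP11-161H23.5 gapmer 1 and gapmer 1+2.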

How the data were processed

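RNA from 36 samples of MEC-1 cells was measured on Affymetrix arrays. Per the submitters' processing notes the deposited log2 signals of 135750 units were made with RMA in Affymetrix Expression Console. Versions and the build were not given in the sources used here. Values, read as log2 by their range, ran from 1.96 to 19.93, and no member reached that ceiling. An array gives no read depth, and the number of arrays limits precision.

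Of the units, 36176 had a single symbol, 1119 several and 98455 none in the array's table, and only single symbols were named. Each experiment was fitted with limma 3.58.1 (R 4.3.3) as 4 group means over 12 arrays, after units with a mean under the median were dropped, which left 67877 to 67896 units. Differences between experiments came from 1 fit of 36 arrays, and scrambled groups were compared in a fit of 9. The Benjamini-Hochberg adjustment ran over all units kept. The scripts were tested on simulated data. Over units at or above the median signal the replicate numbers showed little pairing of samples. The median correlation of deviations between samples of the same number was -0.0053, 0.0125 and 0.016 in the CYTOR, LINC00158 and RP11-161H23.5 experiments. In that order 3, 6 and 4 of 12 arrays were closest to those of their own number. Pairing over the members alone was not tested.

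Values by array were given for members called in all 3 treatments of an experiment (up to 5), called higher, called in opposite directions, called between scrambled groups, or brightest in their role group, and other values were added for members of interest after they were seen. Up to 4 called genes per experiment were named from each other list. The members and lists were chosen with earlier results of these data known. Promoter sequences came from RefSeq (GRCh38.p14), by symbol. Fits were repeated with each array left out, with a replicate block, with another experiment's scrambled arrays as control, with only a contrast's groups or all 36 arrays, with quantile normalization, with trend and robust eBayes, with a stricter filter (75th percentile) or none, and with the mean of a gene's units.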

Additional observations from a re-analysis of the deposited data

Results flagged for a closer look

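The change averaged over the 3 gapmer groups of an experiment differed between experiments for the following members, each by a test of the difference in 1 limma fit of 36 arrays. Experiment and array set cannot be told apart in these differences. Between the LINC00158 and CYTOR experiments ISG15 differed by -3.2411, LY6E by -2.5456, ISG20 by -1.9778 and OAS1 by -1.7144 on the log2 scale, each lower with the LINC00158 gapmers. IFI44L differed by -1.6667, DTX3L by -1.6111, HERC5 by -1.5856 and MX1 by -1.4267, in the same direction. PARP14 (-1.4133), SP110 (-1.2344) and EIF2AK2 (-1.0944) completed the members that were lower with the LINC00158 gapmers. IFIT1 ran the other way, at 1.0256, since it was lower with the CYTOR gapmers. These 12 stand beside 25.8% of all units that differed in that comparison. After quantile normalization the differences of MX1, EIF2AK2, PARP14, IFI44L and SP110 were not called (-0.63, -0.36, -0.67, -0.87 and -0.69, limma adjusted p from 0.0567 to 0.306).

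Between the RP11-161H23.5 and CYTOR experiments ISG15 differed by -2.1111, DTX3L by -1.1556 and EIF2AK2 by -1.1044, lower with the RP11-161H23.5 gapmers, and IFIT1 by 1.0833 and IFI16 by 0.8778, higher with them. Between the LINC00158 and RP11-161H23.5 experiments MX2 differed by -1.2556 and XAF1 by -0.9811, lower with the LINC00158 gapmers. These 5 and 2 of 37 members stand beside 19% and 9.66% of all units that differed, and are smaller shares in both comparisons. The MX2 difference was lost after quantile normalization (limma adjusted p = 0.0597) and the XAF1 difference with only the groups compared in the fit (limma adjusted p = 0.0528). The DTX3L difference between the RP11-161H23.5 and CYTOR experiments was lost without the signal filter. MX2 is also a member whose scrambled groups differed between these experiments, by -1.28 with RP11-161H23.5 minus LINC00158.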

How the results depend on the processing

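Of 87 called changes between gapmer and scrambled arrays, 26 were kept under every other setting run on the same scrambled arrays, up to 8, and with every array left out, among them those of ISG15, DTX3L, IFIT2 and OAS1 with LINC00158 gapmer 2, IFIT5 with each RP11-161H23.5 gapmer, and IFIT1 and SAMD9L with CYTOR gapmer 2 and gapmer 1+2. After quantile normalization 52 of the 87 were called and all 87 kept their sign. With the replicate block 78 were called, with only the groups of the contrast 53, and with each array left out in turn 36. The cause was not tested.

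Counts of members follow for gapmer 1, gapmer 2 and gapmer 1+2 of an experiment. Quantile normalization gave 1, 3 and 3 lower in the CYTOR experiment (main 3, 11 and 7), with 1 higher with gapmer 1 (main 2), 4 and 9 lower with LINC00158 gapmer 1 and gapmer 2 (main 8 and 15), and 1 higher with RP11-161H23.5 gapmer 1 (main 0). It gave 0 and 1 between the RP11-161H23.5 and the LINC00158 or CYTOR scrambled groups (main 3 and 2), 8 between the RP11-161H23.5 and CYTOR experiments (main 5) and 1 between the LINC00158 and RP11-161H23.5 experiments (main 2). Only the groups of the contrast gave 0 higher with CYTOR gapmer 1, 2 lower with CYTOR gapmer 2, 0, 26 and 17 lower with the LINC00158 gapmers, 3, 4 and 11 with the RP11-161H23.5 gapmers (main 5, 7 and 18), 0 between the RP11-161H23.5 and CYTOR scrambled groups, and 9 and 1 between experiments. All 36 arrays in 1 fit gave 15, 24 and 18 with the LINC00158 gapmers (main 8, 15 and 11) and 5 between the RP11-161H23.5 and LINC00158 scrambled groups. Trend and robust eBayes gave 5 for the same scrambled groups, and the filter at the 75th percentile gave 6 there and 4 with CYTOR gapmer 1+2. The mean of all units gave 1 higher with CYTOR gapmer 1. The replicate block gave 1 there, 0 between the RP11-161H23.5 and CYTOR scrambled groups, and 8 and 4 between experiments.

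With the scrambled arrays of another experiment as control, RP11-161H23.5 gapmer 1 and gapmer 2 gave 11 and 12 lower against CYTOR scrambled arrays and 19 and 24 against LINC00158 scrambled arrays. Against the LINC00158 scrambled arrays the CYTOR gapmers gave 6, 18 and 14 lower and 0 higher with gapmer 1. With RP11-161H23.5 scrambled arrays in that role, 7 and 2 members were higher with CYTOR gapmer 1 and gapmer 1+2, and 3, 7 and 7 fell with the LINC00158 gapmers, with 1 higher with gapmer 1+2. Signs turned for MX1 (1.10) and HERC5 (-1.12) with CYTOR gapmer 1+2 (RP11-161H23.5 scrambled arrays as control), and for MX2 with RP11-161H23.5 gapmer 1 (-0.91 against CYTOR and -1.07 against LINC00158 scrambled arrays) and gapmer 2 (-1.01 against LINC00158 scrambled arrays).

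With each array left out in turn, the lower counts ran from 1 to 4, 6 to 9 and 3 to 5 with the CYTOR gapmers, and the higher count with gapmer 1 from 1 to 2. They ran from 1 to 25, 7 to 11 and 3 to 8 with the LINC00158 gapmers, and 2 to 9, 4 to 8 and 11 to 19 with the RP11-161H23.5 gapmers, with 0 to 1 higher with gapmer 1+2 and 0 to 1 between it and the single gapmers. The scrambled counts ran from 0 to 2 and 0 to 1. The counts between experiments ran from 3 to 7 for RP11-161H23.5 against CYTOR and 0 to 11 for LINC00158 against RP11-161H23.5. With LINC00158 gapmer 1 the value 25 came without its replicate 1, and 1 or 2 without any other array of the contrast. These arrays moved a count of lower members by over 1.5 times when left out. CYTOR scrambled replicate 1 gave 6 with gapmer 2 and 3 with gapmer 1+2, scrambled replicate 2 gave 7 and 4, and gapmer 2 replicates 1 and 3 gave 7. Each CYTOR gapmer 1+2 array gave 3, and gapmer 1 replicate 2 gave 1. LINC00158 scrambled replicate 1 gave 7 with gapmer 2 and 4 with gapmer 1+2, scrambled replicate 2 gave 8 and 4, and scrambled replicate 3 gave 6 with gapmer 1+2. LINC00158 gapmer 2 replicates 2 and 3 gave 7 and 8, and gapmer 1+2 replicates 1 and 2 gave 5 and 3. RP11-161H23.5 scrambled replicate 1 gave 2, 4 and 11 with its 3 treatments, scrambled replicate 2 gave 9 with gapmer 1, and scrambled replicate 3 gave 4 with gapmer 2. RP11-161H23.5 gapmer 1 replicate 3 gave 3, gapmer 2 replicate 1 gave 4 and gapmer 1+2 replicate 2 gave 11. The number of arrays limits all these counts.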

Other observations

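A few members had more than 1 unit, and the units did not always move together. The second LY6E unit changed by -0.52, -0.93 and -0.54 with CYTOR gapmer 1, gapmer 2 and gapmer 1+2, where the brightest gave 1.33, 0.43 and 0.66. With RP11-161H23.5 gapmer 1+2 the second LY6E unit changed by 0.65 (limma adjusted p = 0.0388), where the brightest gave -1.12. It was called lower with CYTOR gapmer 2 (limma adjusted p = 0.0417) and with LINC00158 gapmer 1 (change -0.80, limma adjusted p = 0.0368). The dimmest HERC6 unit changed by -0.79 with CYTOR gapmer 2 (limma adjusted p = 0.036), where the brightest gave -0.50 and the other -0.03, neither called. The second RSAD2 unit was lower with CYTOR gapmer 1 and gapmer 1+2, by -0.63 and -0.79 (limma adjusted p = 0.0477 and 0.0254), in the direction of the brightest one. It did not follow elsewhere. With the LINC00158 gapmers it changed by 0.55, 0.02 and 0.19, where the brightest gave -0.33, -0.44 and -0.56. With the RP11-161H23.5 gapmers it changed by -0.08, 0.12 and 0.13, where the brightest gave -0.45, -0.77 and -0.63. None of these was called.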
